A study of Mus musculus with 12 samples.

Results

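Amino acid transporter genes were followed through the ESC to EpiLC transition, in which naive mouse embryonic stem cells (ESCs) become epiblast-like cells (EpiLCs). The genes were the protein-coding genes whose symbol begins with Slc1a, Slc3a, Slc7a, Slc36a, Slc38a or Slc43a, which gave 43 of the 21793 protein-coding genes in the deposited table. Of these, 42 are named for a carrier or a carrier subunit, and Slc7a6os holds the prefix only because it lies beside Slc7a6 on the opposite strand. ESCs were held in the naive state in serum medium with LIF and the 2i inhibitors PD0325901 (MEK) and CHIR99021 (GSK3), and EpiLCs were collected about 56 h after LIF and 2i were withdrawn from the same kind of culture. Every culture received 4-thiouridine (4sU) at 500 µM for 30 min, a uridine analogue that enters RNA made during the pulse. Labelled RNA was captured to give the 4sU libraries (nascent RNA), and RNA without selection, cleared of ribosomal RNA, gave the total libraries. Each cell type and assay had 3 libraries, 12 in all. Per the study's methods the cells were a single mouse line with fluorescent reporters of microRNA clusters, so the replicates are samples of one line, and the labels do not say whether they were separate cultures. P-values then measure the spread between these samples.

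Amino acid transporters are grouped by what they carry and how they are driven. Some SLC7 proteins are light chains that reach the plasma membrane only when bound to a heavy chain, Slc3a2 (the CD98 heavy chain) or Slc3a1 (rBAT), whereas other SLC7 proteins act alone as carriers of the cationic amino acids arginine, lysine and ornithine. SLC1 proteins use the sodium gradient to take up glutamate and aspartate or to exchange small neutral amino acids and glutamine. SLC38 proteins are sodium-coupled carriers of glutamine, alanine and other neutral amino acids, SLC36 proteins are coupled to protons, and SLC43 proteins are facilitators of large neutral amino acids. Pluripotent cells depend on this uptake, and the amino acids that enter are sensed at the lysosome by the mTORC1 pathway and in the cytosol by the kinase GCN2, which acts through the transcription factor ATF4.

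Naive markers and primed markers followed the labels. All 10 naive markers tested were called lower and 6 of 7 primed markers were called higher in EpiLC total RNA. Deposited counts summed to 3097693 to 5385644 per 4sU library and to 9300845 to 21975684 per total library, so low genes carry more counting error in nascent RNA. The ESC replicate 3 libraries stood apart from the other ESC libraries: in total RNA the chi-square per degree of freedom over genes was 24.8 and 25.4 in the pairs with replicate 3 and 2.39 in the pair without it. Primitive endoderm markers summed to 132 to 175 CPM (TMM-adjusted counts scaled to a common library total) in ESC total RNA and to 29.9 to 32.9 in EpiLC total RNA, with none of 8 at 0 in all libraries of either group. They did not move together: of 5 tested, 2 were called higher and 2 lower in total RNA, with a median change of -0.11 (log2). Without both ESC replicate 3 libraries 3 were tested, and 2 were called higher and 1 lower. Fibroblast markers summed to 11.3 to 15.6 and 16.6 to 21.6 CPM, with Postn, Dcn and Fap of the 10 at 0 in ESC total RNA and Lum and Fap at 0 in EpiLC total RNA. Of 4 tested fibroblast markers, 2 were called higher and 1 lower in total RNA. In nascent RNA mesendoderm markers summed to 22 to 30.1 CPM in ESCs and 46.8 to 99.2 in EpiLCs, with Mesp1 of the 7 at 0 in both, and neural markers to 32.5 to 41.5 and 58 to 81.6, with Neurog1 of the 6 at 0 in EpiLCs. Of 3 tested genes in each list, 1 mesendoderm and 2 neural markers were called higher in nascent RNA, and 2 and 1 in total RNA, where the sums overlapped. The part of such cells in the values below was not tested.

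Of the 43 genes, 28 reached 3 CPM in at least 3 libraries and were tested. Slc36a4, Slc7a11, Slc3a1 and Slc7a4 reached 3 CPM in EpiLC libraries only, and Slc1a1 in ESC libraries only. The filter admitted each of them through that cell type alone. A gene was called at a Benjamini-Hochberg adjusted p under 0.05 over all 14731 genes tested together with a change of more than 1 on the log2 scale. In total RNA (the mRNA change, EpiLC total against ESC total), 10 transporter genes were called higher and 3 lower, and 15 were not called. Over all genes tested, 16.3% were called higher and 11.2% lower in this comparison. In nascent RNA (the nascent change, EpiLC 4sU against ESC 4sU), 7 were called higher and 2 lower, beside 11.9% and 13.5% of all genes tested. For mRNA stability (the interaction term, that is how far the mRNA change exceeded the nascent one), 1 gene was called higher and none lower, beside 1.24% and 0.305% of all genes tested. By limma-voom no transporter gene had an unadjusted p under 0.05 for a fall in stability and 9 had one for a rise. The edgeR and DESeq2 fits also called 0 lower. The share of all genes tested at that unadjusted p was not counted. All genes leaned the same way: 8977 of 14731 had a stability change above 0, beside 24 of the 28 transporter genes. The median mRNA change was 0.67 over the 28 genes and 0.02 over all genes tested, the median nascent change was 0.15 against -0.09, and the median stability change was 0.28 against 0.11 (log2). Over the 12312 protein-coding genes tested these medians were -0.04, -0.06 and 0.06, and 6978 of them had a stability change above 0. Without both ESC replicate 3 libraries, 9 genes were called higher and 2 lower in total RNA, 9 higher and 1 lower in nascent RNA, and 1 higher in stability. Slc1a1 did not pass the filter in that fit, which took 1 from each count of genes called lower. The shares of all genes called that are given above belong to the fit of all 12 libraries.

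**Figure D1:**
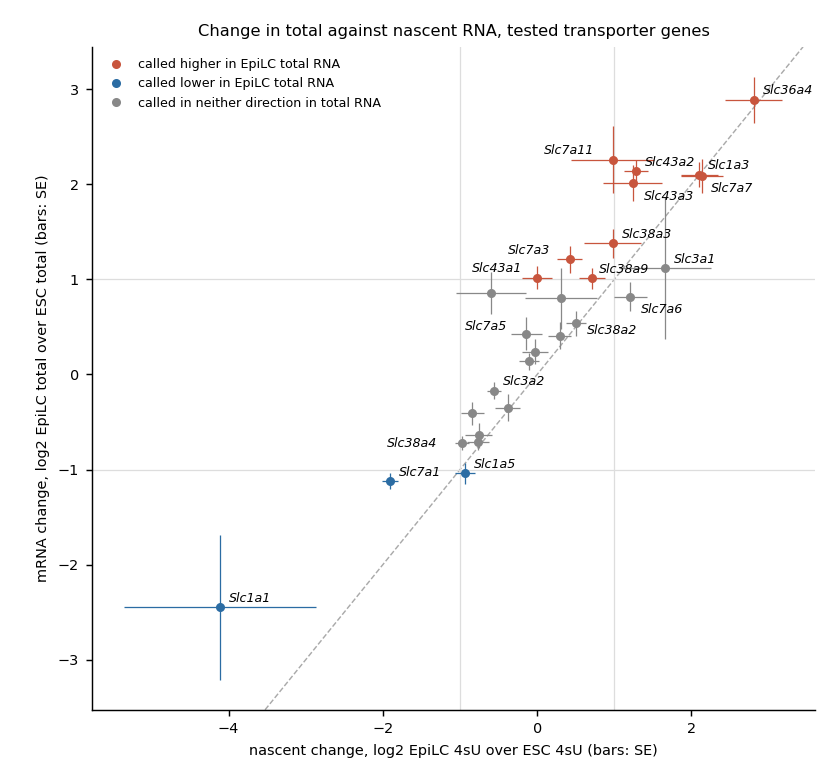
Change of each of the 28 tested genes in nascent RNA (x axis, log2 EpiLC 4sU over ESC 4sU) and in total RNA (y axis, log2 EpiLC total over ESC total), with standard errors as bars, the line of equal change dashed and the fold threshold as grey lines. Slc36a4, Slc1a3 and Slc7a7 lie near the dashed line at the upper right, Slc7a1 lies above it at the lower left, and Slc43a1 lies at a nascent change of 0.00 and an mRNA change of 1.02.

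Levels of different genes were compared per kilobase of exon. In ESC total RNA the highest mean was that of Slc3a2, the shared heavy chain, at 110 ± 8.82 CPM per kb (SD, n = 3). It was followed by Slc38a4 at 83.8 ± 0.902, Slc1a5 at 81.6 ± 5.4, Slc7a5 at 75.7 ± 19.7, Slc7a3 at 67.5 ± 16.4 and Slc38a2 at 64.5 ± 12.2 CPM per kb, and neighbours in this order below Slc3a2 did not differ beyond their spread. In EpiLC total RNA the order changed: Slc7a3, a carrier of arginine and lysine, was highest at 154 ± 10.1 CPM per kb, above the 97.1st percentile of all genes tested. Slc7a5 at 99.5 ± 11.9, Slc3a2 at 97.5 ± 3.88 and Slc38a2 at 93.3 ± 3 CPM per kb followed within one another's spread. Slc38a4 at 51 ± 3.37 and Slc1a5 at 39.5 ± 3.16 CPM per kb lay below them. Summed over the 42 carriers, the level was 639 ± 12.4 CPM per kb in ESC total RNA and 726 ± 38.9 in EpiLC total RNA, and the lowest EpiLC library (683) lay above the highest ESC library (653).

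**Figure D2:**
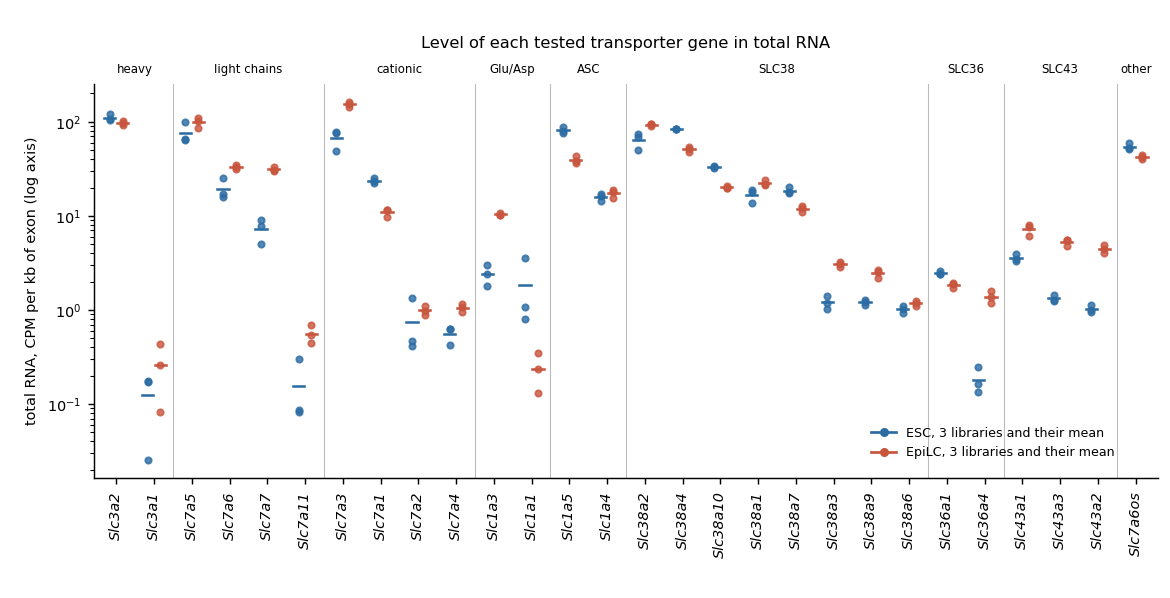
Level of each tested gene in total RNA, in CPM per kilobase of exon on a log axis, with 3 libraries per cell type as points and their mean as a bar, ordered by transporter group. Slc7a3 rose from a mean of 67.5 to 154 CPM per kb and took the first place, while Slc3a2 stayed near 100 (110 and 97.5).

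The heavy chain Slc3a2 brings 6 of the light chains to the membrane and was among the most abundant transporter mRNAs in both cell types. Its total RNA was at 314, 323 and 364 CPM in the ESC libraries and at 282, 297 and 305 in the EpiLC libraries. The groups did not overlap, but the mRNA change of -0.17 ± 0.09 (log2, SE) was not called (adjusted p = 0.0959). In nascent RNA Slc3a2 was at 525, 646 and 639 CPM in ESCs and at 388, 419 and 414 in EpiLCs, a change of -0.56 ± 0.09 (adjusted p = 0.000131) that was smaller than the fold threshold. The other heavy chain, Slc3a1, which serves cystine uptake in kidney and gut, was scarce: 0.409, 1.79 and 1.63 CPM in ESC 4sU libraries and 4.24, 3.39 and 3.26 in EpiLC 4sU libraries. It was called higher in nascent RNA at 1.66 ± 0.60 (adjusted p = 0.0311). This call was lost without ESC 4sU replicate 1 (1.01, adjusted p = 0.164) and with a replicate block (1.53, adjusted p = 0.0563), and the gene did not pass the filter without any 1 of the EpiLC 4sU libraries. Total RNA of Slc3a1 was lower, at 0.058, 0.403 and 0.393 CPM in ESCs and 1.00, 0.190 and 0.596 in EpiLCs, with overlapping groups and no call (1.12 ± 0.75, adjusted p = 0.206).

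Among the light chains, Slc7a7 was called higher in both assays. Slc7a7 (y+LAT1) exchanges cationic for neutral amino acids with sodium. Total RNA was at 20.7, 23.6 and 13.3 CPM in the 3 ESC libraries and at 80.8, 79.8 and 87.4 CPM in the EpiLC libraries. Nascent RNA went the same way, from 22.3, 14.3 and 9.49 CPM to 72.3, 55.5 and 73.6. The cell types did not overlap in either assay, and the mRNA change of 2.09 ± 0.18 (4.26-fold, adjusted p = 1.37e-07) and the nascent change of 2.14 ± 0.27 (4.41-fold, adjusted p = 1.55e-05) left a stability change of -0.05 ± 0.33. The related Slc7a6 (y+LAT2) was at 31.9, 27.9 and 50.2 CPM in ESC 4sU libraries and at 79.6, 74.0 and 86.6 in EpiLC 4sU libraries, a called rise of 1.21 ± 0.21 (adjusted p = 0.000248). In total RNA Slc7a6 was at 59.0, 64.5 and 93.7 CPM in ESCs, replicate 3 being the highest, and at 131, 118 and 123 CPM in EpiLCs. That change, 0.82 ± 0.15 (adjusted p = 0.000309), was under the fold threshold, and without ESC total replicate 3 it passed that threshold narrowly (1 after rounding, adjusted p = 1.84e-06).

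Slc7a5 (LAT1), the main exchanger of leucine and other large neutral amino acids, was abundant throughout and was not called. Its total RNA was at 223, 229.6 and 346 CPM in ESCs and at 305, 357 and 388 in EpiLCs, so ESC replicate 3 lay within the EpiLC range. Nascent RNA was at 178, 179 and 280.4 CPM in ESCs and at 176, 173 and 215 in EpiLCs. The mRNA change was 0.43 ± 0.17 (adjusted p = 0.0417) and the nascent change -0.14 ± 0.20 (adjusted p = 0.574). Slc7a11 (xCT), which imports cystine in exchange for glutamate, rose from a low level: total RNA was at 0.811, 0.856 and 2.95 CPM in ESCs and 4.35, 6.82 and 5.37 in EpiLCs, a change of 2.26 ± 0.35 (4.80-fold, adjusted p = 4.59e-05). Its nascent RNA, at 1.43, 1.25 and 2.44 CPM in ESCs and 2.59, 3.82 and 3.26 in EpiLCs, did not overlap between the cell types but was not called (0.98 ± 0.54, adjusted p = 0.14). It was called without both ESC replicate 3 libraries (1.19, adjusted p = 0.0243), with sample quality weights (1.18, adjusted p = 0.0377) and in a fit of the 4sU libraries alone (1.05, adjusted p = 0.0394). The stability change of Slc7a11, 1.29 ± 0.64 (adjusted p = 0.246), was called without ESC total replicate 3 (1.70, adjusted p = 0.0321).

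The make-up of the light chains that pair with Slc3a2 (Slc7a5, Slc7a6, Slc7a7, Slc7a8, Slc7a10 and Slc7a11) differed between the cell types. In total RNA, Slc7a5 made up 72.6%, 71.1% and 76% of their summed CPM per kb in the ESC libraries and 56.4%, 61.5% and 62.1% in the EpiLC libraries. The share of Slc7a7 was 9.04%, 9.76% and 3.9% in ESCs and 20%, 18.4% and 18.7% in EpiLCs, and that of Slc7a6 averaged 18.7% and 20.1%. Summed light chain level over Slc3a2 level, both per kb, was 0.84, 0.86 and 1.08 in ESC total RNA and 1.65, 1.68 and 1.76 in EpiLC total RNA. These shares are ratios within a library and do not depend on its scaling.

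Of the cationic carriers, 1 was called lower and 1 higher. Slc7a1 (CAT1), the widely expressed arginine and lysine carrier, was at 167, 162 and 182 CPM in ESC total RNA and at 69.6, 82.6 and 83.1 in EpiLC total RNA. Nascent RNA of Slc7a1 was at 211, 219 and 199 CPM in ESCs and at 54.9, 55.7 and 55.8 in EpiLCs, a gap far wider than the spread of either group. The mRNA change was -1.12 ± 0.08 (2.17-fold lower, adjusted p = 2.55e-08) and the nascent change -1.91 ± 0.10 (3.77-fold lower, adjusted p = 2.64e-09). The 2 changes differed: the stability change of Slc7a1 was 0.80 ± 0.13 (adjusted p = 0.00565), under the fold threshold for a call.

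Slc7a3 (CAT3), a carrier of the same substrates, moved the other way. Its total RNA was at 223, 224 and 141 CPM in ESCs, replicate 3 being the lowest, and at 418, 453 and 476 in EpiLCs. Nascent RNA was at 107, 125 and 133 CPM in ESCs and at 155, 177 and 153 in EpiLCs. The groups were apart in both assays, but only the mRNA change was called, at 1.21 ± 0.14 (2.31-fold, adjusted p = 2.81e-06), beside a nascent change of 0.42 ± 0.16 (adjusted p = 0.0436) and a stability change of 0.79 ± 0.22 (adjusted p = 0.0521). Without both ESC replicate 3 libraries the mRNA change of Slc7a3 was 0.99 (adjusted p = 6.57e-11), just short of the fold threshold. Of the summed CPM per kb of the 5 cationic carriers, Slc7a3 held 75.9%, 76.5% and 64.1% in ESC total RNA and 92.4%, 91.9% and 92.2% in EpiLC total RNA, and Slc7a1 held 26.3% ± 6.25 and 6.52% ± 0.279 (SD, n = 3). Slc7a2 (CAT2) had 6.44 ± 4.56 CPM in ESC total RNA and 8.62 ± 0.975 in EpiLC total RNA, with no call (0.80 ± 0.32), although without ESC total replicate 3, which held 11.7 CPM against 3.59 and 4.03, it was called at 1.17 (adjusted p = 0.000241). Slc7a4, for which no transport is well established, had 1.95 ± 0.41 and 3.66 ± 0.369 CPM in total RNA and was not called (0.86 ± 0.22).

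**Figure D3:**
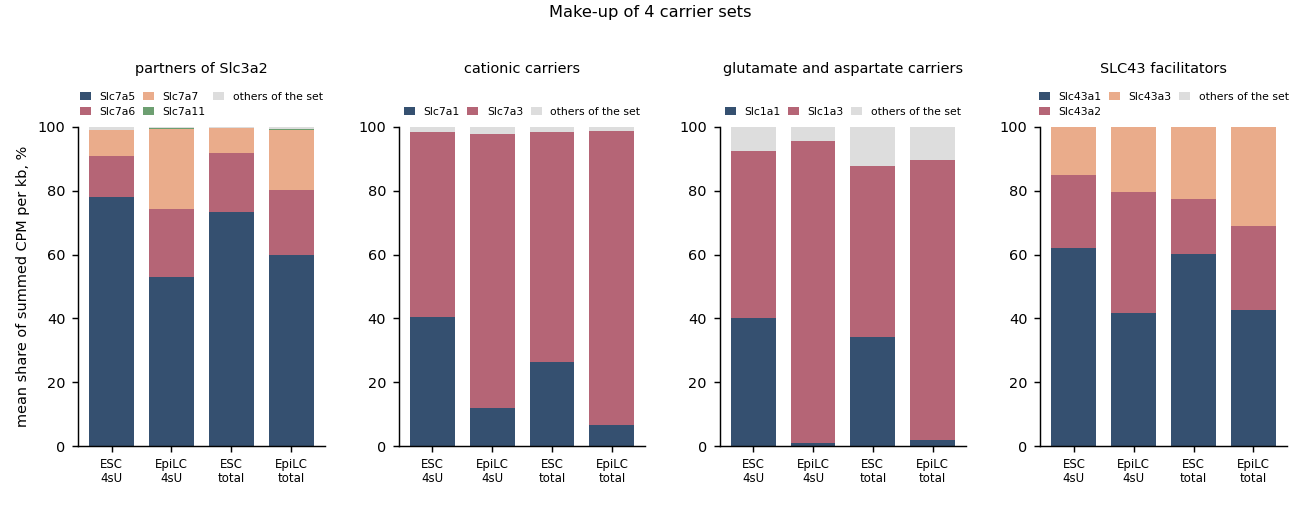
Mean share of each gene in the summed CPM per kb of 4 carrier sets, for each cell type and assay (stacked to 100%, 3 libraries per bar). In total RNA, Slc7a3 took 72.2% of the cationic carriers in ESCs and 92.1% in EpiLCs, and Slc1a3 took 53.6% and 87.5% of the glutamate and aspartate carriers. The ESC mean of Slc1a3 covers libraries at 73.1%, 59.2% and 28.3%, replicate 3 being the lowest. In EpiLCs the 3 libraries were at 84.4%, 86.5% and 91.7%.

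Both tested glutamate and aspartate carriers were called, in opposite directions. Slc1a3 (GLAST), known as a glial glutamate carrier, was at 13.3, 10.5 and 7.96 CPM in ESC total RNA and at 47.6, 45.3 and 45 in EpiLC total RNA. Its nascent RNA was at 6.34, 5.37 and 5.69 CPM in ESCs and at 24.7, 25.2 and 25.2 in EpiLCs. No library overlapped, and the mRNA change (2.1 ± 0.13, 4.29-fold, adjusted p = 3.4e-09) and the nascent change (2.1 ± 0.24, 4.28-fold, adjusted p = 5.59e-06) left a stability change of 0.00 ± 0.27. Slc1a1 (EAAT3), which takes up glutamate, aspartate and cysteine, was at 3.01, 4.13 and 13.7 CPM in ESC total RNA, replicate 3 being the highest, and at 0.893, 1.33 and 0.497 in EpiLC total RNA. The mRNA change was -2.45 ± 0.76 (adjusted p = 0.0115), and without EpiLC total replicate 3 it lost its call (-2.08, adjusted p = 0.0524). Nascent Slc1a1 was at 2.25, 3.04 and 7.59 CPM in ESCs and at 0.00, 0.00 and 0.593 in EpiLCs, which rests on 56 reads over the ESC 4sU libraries and 2 reads over the EpiLC 4sU libraries. On these reads the ESC level was 24.4 times the EpiLC level (95% exact conditional interval 6.44 to 206, which covers counting error only). The fitted nascent change of -4.11 ± 1.24 (adjusted p = 0.0122) lost its call without EpiLC 4sU replicate 1 (-3.62, adjusted p = 0.0639) or replicate 2 (-3.61, adjusted p = 0.0701).

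Slc1a5 (ASCT2), the exchanger that brings in glutamine, fell in total RNA from 213, 222 and 242 CPM in ESCs to 102, 119 and 107 in EpiLCs. In nascent RNA it was at 117, 125 and 171 CPM in ESCs and at 73.8, 70.8 and 65.9 in EpiLCs. All EpiLC libraries lay below all ESC libraries in both assays. The mRNA change of -1.04 ± 0.11 (2.06-fold lower, adjusted p = 1.11e-06) sat at the fold threshold, and it fell short of it without ESC total replicate 3 (-1 after rounding) or EpiLC total replicate 1 (-0.99) and when library totals replaced the scaling (-0.96). The nascent change of Slc1a5, -0.94 ± 0.13 (adjusted p = 4.2e-05), was not called, but without ESC 4sU replicate 1 it was (-1.06, adjusted p = 5.33e-05). The other exchanger of this kind, Slc1a4 (ASCT1), had 62.4 ± 5.35 CPM in ESC total RNA and 68.4 ± 7.28 in EpiLC total RNA, a difference of 0.14 ± 0.09 (adjusted p = 0.203).

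Of the 8 tested sodium-coupled neutral carriers, 2 were called higher in total RNA and none in nascent RNA. Slc38a3 (SNAT3), a glutamine and histidine carrier, was at 4.23, 3.67 and 5.01 CPM in ESC total RNA and at 10.9, 11.5 and 10.1 in EpiLC total RNA, a rise of 1.38 ± 0.15 (2.6-fold, adjusted p = 1.86e-06). Its nascent RNA, at 1.43, 1.25 and 2.17 CPM in ESCs and 2.36, 3.60 and 3.56 in EpiLCs, changed by 0.98 ± 0.37 (adjusted p = 0.0364), just under the fold threshold. It passed that threshold without ESC 4sU replicate 3 (1.24), ESC total replicate 1 (1.04) or EpiLC 4sU replicate 1 (1.26), and by edgeR (1.01) and DESeq2 (1.07). Slc38a9, the lysosomal arginine sensor of mTORC1, was at 10.1, 11.4 and 10.9 CPM in ESC total RNA and at 23.8, 22.3 and 19.5 in EpiLC total RNA. Nascent RNA of Slc38a9 was at 10.6, 11.3 and 8.68 CPM in ESCs and at 17.4, 16.7 and 16.6 in EpiLCs. The groups were well apart in both assays, and the mRNA change of 1.01 ± 0.11 (2.01-fold, adjusted p = 1.4e-06) lay at the fold threshold. Its call was lost in 12 of 25 alternative fits (range 0.93 to 1.10). By limma treat, which tests against the fold threshold, the change stayed at 1.01. In the other losses it fell under that threshold. These included the fits without ESC 4sU replicate 2 or 3 (both 0.98), ESC total replicate 1 (0.93), EpiLC 4sU replicate 1 or 3 (both 0.99) and EpiLC total replicate 1 (0.95) or 2 (0.99).

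Slc38a2 (SNAT2), the carrier that cells raise when amino acids run short, had the highest mean level of the transporter genes in EpiLC nascent RNA per kb, and in ESC nascent RNA its level (209 ± 35.7 CPM per kb) did not differ from that of Slc3a2 (199.6 ± 22.5) beyond the spread. It was at 995, 1118 and 791 CPM in ESC 4sU libraries and at 1338, 1337 and 1393 in EpiLC 4sU libraries. In total RNA Slc38a2 was at 339, 322 and 234 CPM in ESCs and at 416, 441 and 438 in EpiLCs. The EpiLC libraries were higher in both assays, by 0.50 ± 0.13 (adjusted p = 0.00513) and 0.54 ± 0.13 (adjusted p = 0.00216), under the fold threshold. Slc38a4 (SNAT4), an imprinted gene expressed from the paternal copy, was lower in EpiLCs, with 329, 335 and 329.9 CPM against 188, 202 and 215 in total RNA (-0.72 ± 0.07, adjusted p = 4.74e-07), and 127, 147 and 139.9 CPM against 70.2, 69.7 and 71.2 in nascent RNA (-0.97 ± 0.09, adjusted p = 6.54e-07). Without ESC 4sU replicate 1 the nascent change of Slc38a4 passed the fold threshold (-1.05, adjusted p = 1.53e-06). Slc38a1, Slc38a2 and Slc38a4 lie next to one another on chromosome 15 (mm10, chr15:96571418-97055956 from the first to the last base of the 3 genes, all on the minus strand), and in total RNA Slc38a1 (0.41 ± 0.14) and Slc38a2 were higher and Slc38a4 lower in EpiLCs, none of them past the fold threshold.

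The remaining SLC38 members were not called in any comparison. Slc38a10 had 179 ± 6.01 CPM in ESC total RNA and 110 ± 3.99 in EpiLC total RNA (-0.71 ± 0.08), and the lysosomal glutamine exporter Slc38a7 had 61.9 ± 4.93 and 39.6 ± 3.02 CPM (-0.64 ± 0.13). Slc38a6 had 6.87 ± 0.59 and 7.96 ± 0.487 CPM (0.24 ± 0.13), a difference that did not pass the test (adjusted p = 0.12).

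Slc36a4 had the largest rise of the tested transporter genes in both assays, and it passed the filter through EpiLC libraries alone. It encodes a proton-family carrier of high affinity for proline and tryptophan. Total RNA was at 1.62, 1.06 and 0.885 CPM in ESCs and at 7.81, 8.91 and 10.3 in EpiLCs, and nascent RNA at 1.23, 1.43 and 0.813 CPM in ESCs and at 8.01, 9.96 and 8.31 in EpiLCs. The mRNA change was 2.89 ± 0.24 (7.44-fold, adjusted p = 9.11e-08) and the nascent change 2.81 ± 0.37 (7.01-fold, adjusted p = 1.95e-05), with a stability change of 0.09 ± 0.44. Over the alternative fits the mRNA change of Slc36a4 was 2.77 to 3.12. Slc7a10, which did not pass the filter, rose by 3.91 in the fit without one, on 47 reads over the 12 libraries. Slc36a1, which exports amino acids from lysosomes, was not called, at 13.3 ± 0.533 CPM in ESCs and 9.98 ± 0.64 in EpiLCs in total RNA (-0.41 ± 0.12) and at 23.0 ± 1.92 and 12.6 ± 1.69 CPM in nascent RNA (-0.84 ± 0.15, adjusted p = 0.000337).

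All 3 SLC43 genes were called higher in EpiLC total RNA. Slc43a2 (LAT4), a facilitator of branched-chain amino acids and methionine, was at 6.89, 7.20 and 8.06 CPM in ESC total RNA and at 29.2, 32.1 and 35.3 in EpiLC total RNA, and at 10.6, 11.8 and 10.9 CPM in ESC 4sU libraries and 24.0, 27.3 and 30.9 in EpiLC 4sU libraries. The rise in total RNA, 2.14 ± 0.12 (4.41-fold, adjusted p = 1.46e-09), was larger than that in nascent RNA, 1.28 ± 0.16 (2.42-fold, adjusted p = 1.8e-05), by a stability change of 0.87 ± 0.20 (adjusted p = 0.03) that stayed under the fold threshold. Its adjusted p passed 0.05 without ESC 4sU replicate 2 (0.0962) or 3 (0.0547), ESC total replicate 1 (0.0995) or 2 (0.0721), EpiLC 4sU replicate 1 (0.111) or 2 (0.0706) and EpiLC total replicate 2 (0.0676) or 3 (0.0687). Slc43a3, known as a carrier of purine nucleobases, was at 3.25, 3.32 and 3.74 CPM in ESC total RNA and at 12.5, 14.3 and 14.4 in EpiLC total RNA (2.01 ± 0.19, 4.04-fold, adjusted p = 4.13e-07). Its nascent RNA was at 1.64, 1.61 and 4.88 CPM in ESCs and at 4.01, 7.21 and 5.04 in EpiLCs, so ESC replicate 3 overlapped the EpiLC range. The nascent rise of 1.24 ± 0.38 (adjusted p = 0.0142) lost its call without ESC 4sU replicate 1 (1.01, adjusted p = 0.0698), ESC 4sU replicate 2 (1.02, adjusted p = 0.0708) or EpiLC 4sU replicate 2 (0.99, adjusted p = 0.0741).

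Slc43a1 (LAT3), the neighbour of Slc43a3 on chromosome 2 (mm10, chr2:84838850-84863594 and chr2:84936664-84958509, both on the plus strand), was the 1 transporter gene called for stability. It was at 14.1, 12.5 and 12.1 CPM in ESC total RNA and at 22.1, 27.6 and 29.2 in EpiLC total RNA, whereas nascent RNA was at 17.8, 14 and 14.1 CPM in ESCs and at 15.6, 16.5 and 13.4 in EpiLCs. The cell types were apart in total RNA and overlapped in nascent RNA. The mRNA change was 1.02 ± 0.12 (2.02-fold, adjusted p = 4.13e-06), the nascent change 0.00 ± 0.19 (adjusted p = 0.988) and the stability change 1.01 ± 0.23 (2.02-fold, adjusted p = 0.0248). Neither call was stable: the mRNA call was lost in 12 of 25 alternative fits (0.94 to 1.14) and the stability call in 17 of 25 (0.86 to 1.12), always with the same sign. The adjusted p of the stability change passed 0.05 in 7 of the 12 fits without 1 library (0.0554 to 0.0931), without a filter (0.102) and by limma treat, and in the other losses the change fell to or under the fold threshold. The stability change of Slc43a1 lost its call without ESC 4sU replicate 1 (0.91) or 3 (0.97), ESC total replicate 1 (1.00), 2 (0.98) or 3 (0.98), any EpiLC 4sU library (0.94, 1.08 and 0.86 without replicates 1, 2 and 3) and EpiLC total replicate 2 (0.97) or 3 (0.93). The mRNA change lost its call without ESC 4sU replicate 2 or 3 (both 0.99), ESC total replicate 2 or 3 (both 0.98) and EpiLC total replicate 2 (0.98) or 3 (0.94). By edgeR the stability call was kept, and by DESeq2 the change was 0.95 (adjusted p = 0.00787).

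**Figure D4:**
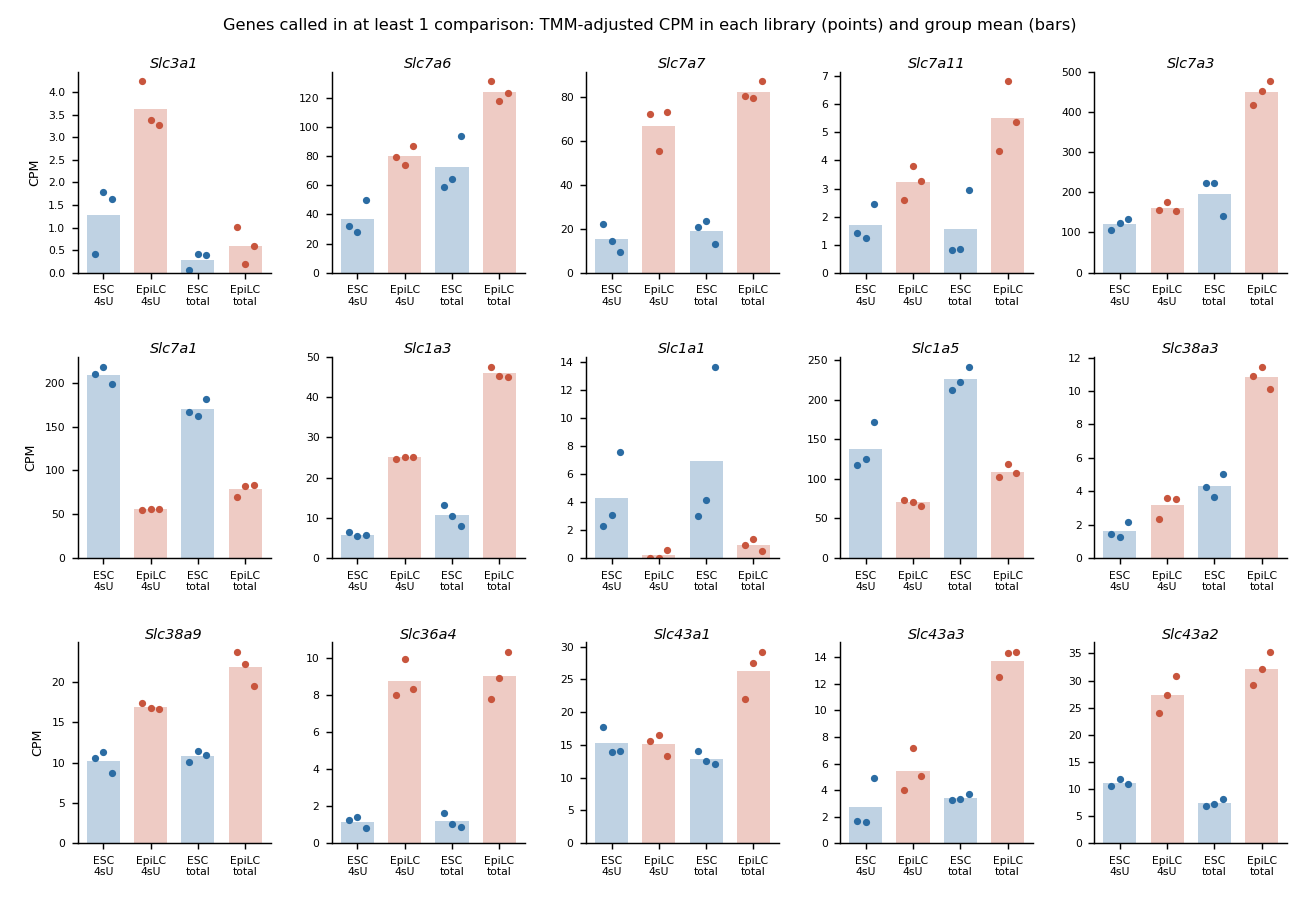
TMM-adjusted CPM of the 15 genes called in at least 1 comparison, in each library (points) with the group mean as a bar from 0 and cell types in blue (ESC) and red (EpiLC). ESC replicate 3, the last point of each ESC group, is the highest of its group for Slc1a1 (13.7 CPM in total RNA) and the lowest for Slc7a3 (141 CPM in total RNA).

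Relative mRNA stability was taken as log2 of total over 4sU in libraries of the same number, so that a higher value means more total RNA for the nascent RNA made. Equal numbers did not mark shared deviations in EpiLCs (r of 0.0747, 0.0295 and 0.0234). The values per pair and their SDs therefore depend on the numbering, and the means do not. Over the 28 genes it ran from -2.23 ± 0.29 (Slc3a1) to 2.18 ± 0.19 (Slc38a10) in ESCs and from -2.77 ± 0.98 (Slc3a1) to 2.27 ± 0.12 (Slc38a10) in EpiLCs (SD, n = 3). The values for Slc38a10 were 2.13, 2.39 and 2.03 in ESCs and 2.21, 2.19 and 2.41 in EpiLCs, at the 96.1st and 97.1st percentiles of all genes tested. The values for Slc38a2 were -1.55, -1.80 and -1.75 in ESCs and -1.69, -1.60 and -1.67 in EpiLCs, at the 18.7th and 16.4th percentiles. Slc38a2 was thus higher in nascent than in total RNA in every pair, while Slc38a4 from the same cluster was at 1.26 ± 0.09 and 1.51 ± 0.09. Of the cationic carriers, Slc7a1 was at -0.30 ± 0.16 in ESCs and 0.49 ± 0.13 in EpiLCs, and Slc7a3 at 0.67 ± 0.51 and 1.47 ± 0.14.

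**Figure D5:**
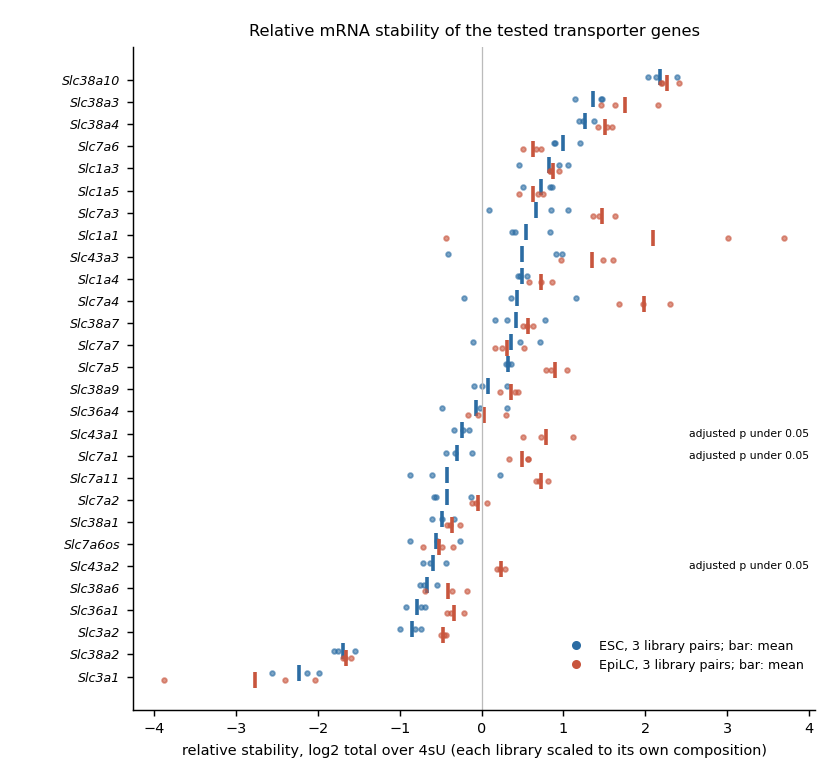
Relative stability of each tested gene, log2 of total over 4sU, for 3 library pairs per cell type (points) and their mean (bar), ordered by the ESC mean. Slc43a1, Slc7a1 and Slc43a2, the genes with an adjusted p under 0.05 for the interaction, have all EpiLC points to the right of all ESC points. The same holds for Slc1a4, Slc36a1, Slc38a4, Slc3a2, Slc7a2, Slc7a3, Slc7a4, Slc7a5 and Slc7a11, and the opposite for Slc7a6. Such separation depends on which libraries share a number and was not counted over all genes. Slc38a10 (2.18) and Slc3a1 (-2.23) mark the ends of the ESC order.

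Sites for the ESC-enriched microRNA family are shown because these microRNAs are highly expressed in pluripotent cells and act on mRNA stability and translation. Members of the family from the miR-290 cluster on chromosome 7 and the miR-302 cluster on chromosome 3 share a seed (bases 2 to 8, in capitals), as the RefSeq sequences of 2 members show.
miR-294-3p: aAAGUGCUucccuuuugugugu
miR-302b-3p: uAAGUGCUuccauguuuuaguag
The match AGCACTT was found in the 3′ UTR of the GENCODE M21 principal transcript in 5 of the 28 tested transporter genes (17.9%), beside 16.3% of 12308 tested protein-coding genes. The median 3′ UTR was 1949 bases long in the transporter genes and 1046 bases in all. The sites of 3 of these genes, each called higher in EpiLC total RNA, are shown with the match in capitals.
Slc43a2, first: atggtagtgcAGCACTTggaaggtggt
Slc43a2, second: gcacacagtaAGCACTTaataaatgta
Slc7a11, first: atattcttatAGCACTTctttatctct
Slc7a11, second: ctgggttctgAGCACTTtgtgtgatgg
Slc36a4: taaatactggAGCACTTaggcattgtc
Of these, Slc43a2 had a stability change of 0.87, Slc7a11 of 1.29 and Slc36a4 of 0.09, and only that of Slc43a2 had an adjusted p under 0.05. Slc36a1 had 1 site and a stability change of 0.43 ± 0.19 (adjusted p = 0.198). The AU-rich heptamer TATTTAT was in the 3′ UTR of 8 of the 28 genes (28.6%, beside 29% of all), with 2 copies each in Slc36a4, Slc38a1, Slc38a2 and Slc38a9.

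Promoters were searched for the C/EBP-ATF response element TGATGNAA, the element that ATF4 dimers bind, and for the E-box CACGTG, which Myc and the lysosomal regulators of the TFE family bind, on both strands (CACGTG reads the same on both) and in windows from 250 bases before to 50 bases after the start site. RefSeq windows (GRCm38.p6) matched 32 of the 43 genes. The response element was in 3 of them (9.38%), beside 4.51% of 27025 genes with a window, and the E-box in 7 (21.9%), beside 8.09%. Restricted to tested genes, 3 of 20 transporter genes (15%) held each element, beside 2.64% (response element) and 12% (E-box) of 10114 tested genes. No window held both elements. One window per gene with a response element is shown on the strand of the gene, with the match in capitals: Slc7a11 at chr3:50443564-50443863 (minus strand), the upstream window of Slc7a7 at chr14:54417895-54418194 (minus strand) and Slc1a4 at chr11:20332664-20332963 (minus strand).
Slc7a11: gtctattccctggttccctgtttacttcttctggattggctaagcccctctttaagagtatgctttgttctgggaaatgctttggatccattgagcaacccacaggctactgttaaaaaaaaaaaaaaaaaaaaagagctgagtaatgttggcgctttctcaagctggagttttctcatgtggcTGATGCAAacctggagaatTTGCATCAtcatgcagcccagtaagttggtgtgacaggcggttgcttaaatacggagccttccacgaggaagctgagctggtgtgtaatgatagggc
Slc7a7: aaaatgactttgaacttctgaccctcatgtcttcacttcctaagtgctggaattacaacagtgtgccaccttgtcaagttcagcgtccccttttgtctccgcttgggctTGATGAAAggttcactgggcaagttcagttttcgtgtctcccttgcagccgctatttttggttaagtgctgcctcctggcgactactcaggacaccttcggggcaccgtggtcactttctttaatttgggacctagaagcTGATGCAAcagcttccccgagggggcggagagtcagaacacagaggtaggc
Slc1a4: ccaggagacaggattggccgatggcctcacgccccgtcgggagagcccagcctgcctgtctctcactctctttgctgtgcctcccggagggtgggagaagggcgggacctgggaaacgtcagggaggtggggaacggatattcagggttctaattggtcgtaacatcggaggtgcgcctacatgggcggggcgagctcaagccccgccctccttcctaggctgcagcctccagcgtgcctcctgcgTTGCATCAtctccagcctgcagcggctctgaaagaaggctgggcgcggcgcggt
A second, overlapping window of Slc7a7 at chr14:54417653-54417952 is not shown. Its match, 243 bases before its own start, is the same genomic site as the TGATGCAA of the window shown, so it adds no further element. In Slc7a11 the matches begin 66 and 47 bases before the start site and face each other. The nascent change was 0.98 ± 0.54 for Slc7a11, with the alternative calls given above, 2.14 ± 0.27 for Slc7a7, which was called, and -0.10 ± 0.13 for Slc1a4. The E-box windows among tested genes belong to Slc36a1, Slc38a7 and Slc43a1. The window of Slc43a1 at chr2:84840073-84840372 (plus strand) is shown because this gene was called for stability, and its match begins 64 bases before the start site.
Slc43a1: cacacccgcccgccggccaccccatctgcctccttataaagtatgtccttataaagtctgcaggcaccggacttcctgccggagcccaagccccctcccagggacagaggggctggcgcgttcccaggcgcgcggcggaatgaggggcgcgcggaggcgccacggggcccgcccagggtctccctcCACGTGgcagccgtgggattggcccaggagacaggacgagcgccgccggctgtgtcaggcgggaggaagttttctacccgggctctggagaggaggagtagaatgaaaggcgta

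The GCN2 and ATF4 response, in which several transporter genes are known targets, was counted over 22 tested genes. In total RNA 3 were called higher and 3 lower, beside 16.3% and 11.2% of all genes tested. In nascent RNA 1 was called higher and 6 lower, beside 11.9% and 13.5%, with a median nascent change of -0.44 against -0.09 over all genes tested. ESC 4sU replicate 3 was the highest of its group for 21 of the 22 genes, and their summed level was 2480, 2770 and 3750 CPM in the ESC 4sU libraries and 1930, 1910 and 1960 in the EpiLC 4sU libraries. Without both ESC replicate 3 libraries 2 were called higher and 4 lower in nascent RNA, with a median of -0.31 against -0.10, and 3 higher and 2 lower in total RNA. Asns, asparagine synthetase, went from 1806, 1760 and 1940 CPM in ESC total RNA to 511, 445 and 491 in EpiLC total RNA (-1.93 ± 0.08, adjusted p = 1.21e-10). The other falls called in total RNA were those of the stress protein Nupr1 (-3.50 ± 0.33) and the glutathione-degrading enzyme Chac1 (-1.06 ± 0.24). The rises were those of the transcription factors Atf3 (1.52 ± 0.36) and Cebpb (1.04 ± 0.18) and of the lipoprotein receptor Vldlr (1.02 ± 0.16). Atf3 was at 9.39, 8.66 and 21 CPM in ESC total RNA and at 33.5, 31.7 and 30.4 in EpiLC total RNA. For stability 1 gene was called higher (Vldlr, 1.14) and none lower.

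In the list for amino acid sensing to mTORC1, 3 of 32 tested genes were called higher and none lower in total RNA, with a median change of 0.02. Over all genes tested 16.3% were called higher and 11.2% lower, with the same median. The arginine sensor subunit Castor2 rose from 5.91, 4.73 and 6.98 CPM to 28.9, 27.8 and 27.1 in total RNA (2.31 ± 0.15, adjusted p = 8.68e-09) and was the 1 gene of this list called for stability (1.32, adjusted p = 0.013). The leucine-sensing family member Sesn3 rose by 1.39 ± 0.10. The Rag GTPase Rragb rose by 1.80 ± 0.41, with ESC total libraries at 26.1, 29.8 and 6.19 CPM, replicate 3 being far below the other 2. In nascent RNA 1 gene was called higher (Sesn3) and 1 lower (Sesn1, -1.18 ± 0.16), beside 11.9% and 13.5% of all genes tested.

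Among 26 other amino acid carriers outside the 6 prefixes, 16 were tested, and 3 were called higher and 4 lower in total RNA (2 and 4 in nascent RNA, none for stability). The shares of all genes tested were 16.3% and 11.2% in total RNA and 11.9% and 13.5% in nascent RNA. Slc16a10, a carrier of aromatic amino acids, rose from 3.65, 4.08 and 7.47 CPM to 23.1, 23.5 and 24.0 in total RNA (2.38 ± 0.17, adjusted p = 2.18e-08), and the neutral amino acid carrier Slc6a15 rose by 2.00 ± 0.09. The mitochondrial glutamate carrier Slc25a18 was called at 1.65 ± 0.48, on less than 1 CPM in every total library. The proline carrier Slc6a7 fell from 5.97, 6.29 and 5.90 CPM to 0.00, 0.0947 and 0.00, which is 1 read over the 3 EpiLC total libraries. The mitochondrial aspartate and glutamate carrier Slc25a12 fell by 2.32 on the log2 scale, and the ornithine carrier Slc25a2 was lower at under 1 CPM in every EpiLC total library (-2.17 ± 0.69, adjusted p = 0.0134).

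The other 15 transporter genes did not pass the filter and were not tested. Slc36a3 and Slc7a12 had 0 reads in all 12 libraries, which allows at most 3 reads over these libraries. Slc7a13 had 1 read, Slc38a11 and Slc7a15 had 5 each, Slc1a2 had 8 and Slc36a2 had 9. Slc38a5 reached 3.53, 3.77 and 1.77 CPM in ESC total RNA and 1.12, 1.14 and 0.696 in EpiLC total RNA. Slc7a14, a lysosomal family member, was at 0.232, 0.101 and 0.295 CPM in ESC total RNA and at 1.34, 2.27 and 1.69 in EpiLC total RNA, and Slc7a10, a light chain for small neutral amino acids, at 0.00, 0.050 and 0.197 CPM and at 1.34, 1.52 and 1.19. Slc1a6, a neuronal glutamate carrier, was at 0.522, 0.554 and 0.590 CPM and at 3.46, 2.46 and 1.59. In these 3 genes every EpiLC total library lay above every ESC total library. The opposite held for Slc38a5 and for Slc38a8 (1.85, 1.01 and 0.983 CPM in ESCs and 0.00, 0.284 and 0.00 in EpiLCs), Slc1a7 (0.174, 0.856 and 2.06 against 0.112, 0.0948 and 0.00) and Slc7a9 (0.637, 0.705 and 0.295 against 0.223, 0.19 and 0.0994). These separations rest on few reads and were not counted over all genes. Over the 12 libraries Slc7a10 had 47 reads, Slc1a7 48, Slc7a9 49, Slc38a8 80, Slc7a14 89, Slc1a6 108 and Slc38a5 189. For Slc1a7 the nearest libraries held 3 reads (ESC total replicate 1) and 1 read (EpiLC total replicate 1). Slc7a8 had 142 reads over the 12 libraries and reached 3.80 CPM in 1 ESC 4sU library. Slc7a6os, the gene that only shares a prefix, was at 67.9 ± 5.62 CPM in ESC total RNA and 53.0 ± 2.88 in EpiLC total RNA and was not called (-0.35 ± 0.14).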

How the data were processed

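The authors trimmed reads with cutadapt 1.14, aligned them to mm10 with STAR 2.5.3a, kept reads with 1 genomic position and deposited raw counts per gene made with featureCounts 1.5.3 on the reverse strand over GENCODE M14 exons. Genes with close copies lose reads by this rule. The table held 51467 genes and 92 spike-in entries, all at 0. Symbols came from GENCODE M21 (99.6% of IDs matched).

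After the study's methods, a limma-voom model (limma 3.58.1, edgeR 4.0.16 for TMM scaling, R 4.3.3) of 4 group means was fitted to all 12 libraries and the 14731 genes that reached 3 CPM in 3 or more libraries. CPM are TMM-adjusted and relative to library composition, so a change in RNA per cell is not seen. Alternatives included edgeR's quasi-likelihood test and DESeq2 1.42.0.

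Every gene of the prefixes is named. Those called in any comparison, Slc3a2 and the 5 highest per kb in total RNA are given per library, and the other lists by counts and up to 3 rises and 3 falls called in total RNA. The genes and lists were chosen with earlier results of these data known. Ratios of low counts used scipy 1.17.1. UTRs are those of GENCODE M21, and promoters and microRNAs those of RefSeq. The microRNA sites of 1 gene are not reported here.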

Additional observations from a re-analysis of the deposited data

Results flagged for a closer look

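The changes in total and nascent RNA of the same gene differed by the interaction test (limma-voom, adjusted p under 0.05) in 3 transporter genes. The stability change was 1.01 ± 0.23 (log2, SE) for Slc43a1, 0.87 ± 0.20 for Slc43a2 and 0.80 ± 0.13 for Slc7a1, with adjusted p of 0.0248, 0.03 and 0.00565. Over the alternative fits the lowest and highest stability change were 0.86 and 1.12 for Slc43a1, 0.69 and 0.94 for Slc43a2, and 0.70 and 0.90 for Slc7a1. The adjusted p of Slc43a1 was above 0.05 in 7 of the 12 fits without 1 library (up to 0.0931) and without a filter (0.102). That of Slc43a2 was above 0.05 in 8 of these 12 fits (up to 0.111) and without a filter (0.128), and that of Slc7a1 in none of them. By limma treat, which tests against the fold threshold, none of the 3 passed.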

How the results depend on the processing

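No call of a transporter gene changed its sign in any of the 26 alternatives. Of 13 mRNA calls, 6 were kept under every alternative (Slc1a3, Slc36a4, Slc43a2, Slc43a3, Slc7a11 and Slc7a7), as were 4 of 9 nascent calls (Slc1a3, Slc36a4, Slc7a1 and Slc7a7) and none of the 1 stability call. The number called higher for stability was 0 with median-of-ratios scaling, TMM within each assay, no filter, the filterByExpr filter, DESeq2, limma treat and sample quality weights, because Slc43a1 fell to or under the fold threshold or lost its adjusted p. Without a filter 12 were called higher and 6 lower in total RNA: Slc38a9 and Slc43a1 were lost, and of the genes below the filter Slc1a2, Slc1a6, Slc7a10 and Slc7a14 were called higher and Slc1a7, Slc38a5 and Slc38a8 lower. The call of Slc1a2 rests on 0 reads in every ESC total library and 2, 1 and 2 reads in the EpiLC total libraries. Slc1a7 had 1, 1 and 0 reads in the EpiLC total libraries. With the adjusted p alone, 16 were higher and 8 lower in total RNA, 11 and 8 in nascent RNA and 3 higher for stability. By limma treat, 6 and 0 were called in total RNA and 3 and 1 in nascent RNA. Leaving out libraries gave 8 to 11 higher and 2 to 3 lower in total RNA, 5 to 9 higher and 1 to 4 lower in nascent RNA and 0 to 1 higher for stability. These counts of the alternatives stand without the share of all genes called in the same fit. The same numbers in 4sU and total libraries did not mark shared deviations throughout (r of 0.163, 0.296 and 0.408 in ESCs and 0.0747, 0.0295 and 0.0234 in EpiLCs), so the main fit assumed no pairing. Only the relative stability values per pair used libraries of the same number. A replicate block gave 10 and 3 calls in total RNA, 6 and 2 in nascent RNA and 1 and 0 for stability. Library totals in place of TMM moved the median mRNA change of all genes to 0.11. Nascent Slc1a1 rests on 2 reads in EpiLCs, which limits its fold change.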
